A study of Mus musculus with 2 samples.

Results

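The Runx1 peaks of mouse double-positive (DP) thymocytes were examined at 46 genes that encode chromatin regulators. The genes were listed by name, and all 46 were found among the 22359 protein-coding genes of the GENCODE annotation of NCBIM37 (mm9). DP thymocytes are the CD4+ CD8+ stage of T-cell development. They were purified from the thymus of C57BL/6 mice, which the methods of the study describe as 4 to 6 weeks old. No genotype or treatment distinguished the samples: 1 library came from chromatin immunoprecipitated with 10 μg of an anti-Runx1 antibody, and 1 input library was made without antibody. The catalogue number of the antibody differs between the sample labels and the methods. The Runx1 list held 3531 peaks, whose scores ran from 14 to 129 (median 18), and the input list held 740 peaks. With 1 library per condition and no read counts in the lists, depth was unknown and no spread between replicates could be computed, so the values below describe 1 Runx1 library. Expression was not measured in these files, so the identity of the cells could not be checked against marker genes.

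Runx1 belongs to the RUNX transcription factors, binds DNA together with its partner CBFβ and is required at several steps of T-cell development. Chromatin regulators are mostly expressed in many tissues. They add or remove histone and DNA modifications, read them, or move nucleosomes. RUNX proteins bind the letters TGTGGT, and less often TGCGGT, and these are called RUNX words here.

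A gene was counted as having a promoter-proximal peak if the centre of a peak lay within 5 kb of the TSS of its longest protein-coding transcript. By this count 9 of the 46 genes had a peak, against 4.49% of the other protein-coding genes, and these were Kdm5a, Kdm5b, Rbbp5, Rbbp4, Asxl1, Eed, Chd4, Hdac7 and Arid4a. There were 11 such peaks, with 2 each at Kdm5b and Hdac7. A further 2 genes, Tet3 and Kdm2b, had a peak inside the gene but none near the TSS. An intragenic peak, with or without one near the TSS, was found at 6 of the 46 genes and at 6.48% of the other genes. Another 12 had a peak only within 50 kb beyond the gene, and 23 had none in this reach, so that 23 in all had a peak in or within 50 kb of the gene, against 25.8% of other genes. The 36 peaks at these genes made up a small part of the 3531. No peak lay in the reach of more than 1 of the 46 genes.

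**Figure D1:**
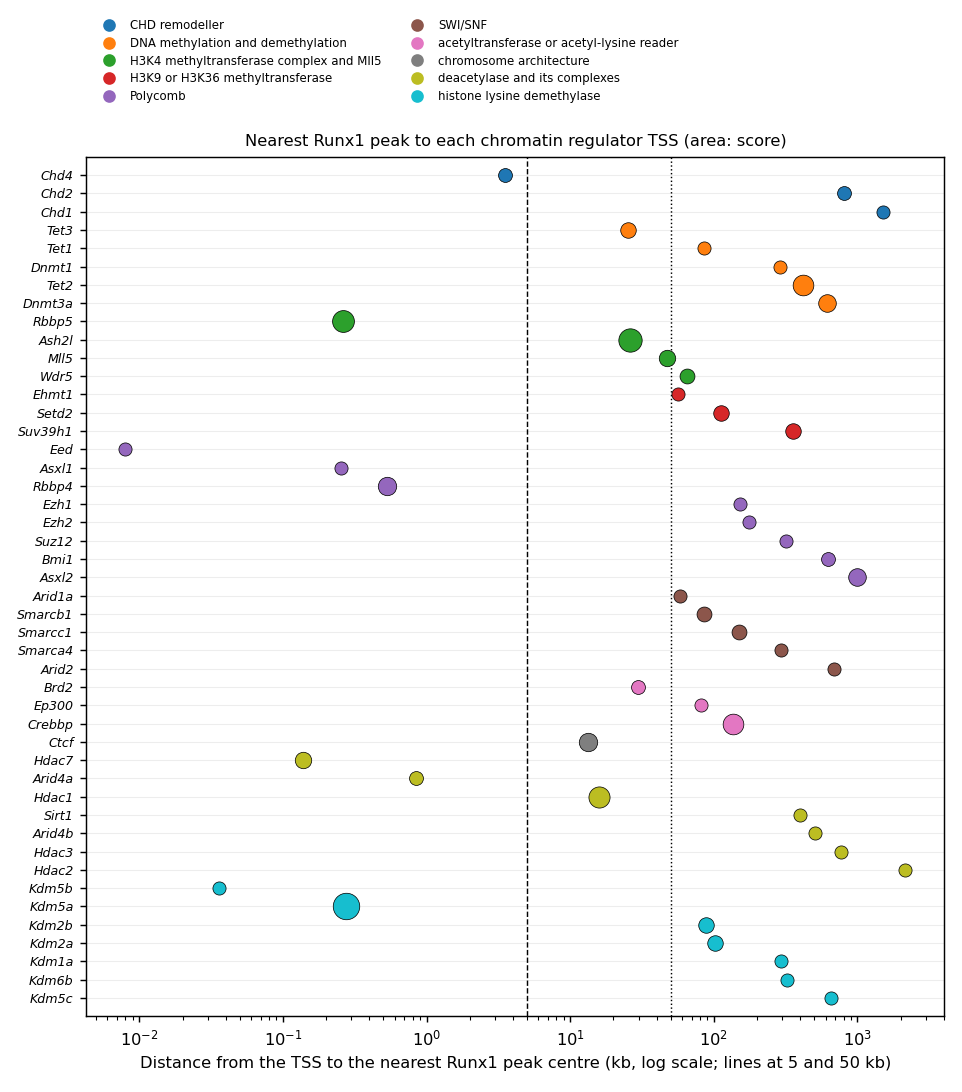
Distance in kb (log scale) from the TSS of each of the 46 genes to the centre of the nearest Runx1 peak, ordered and colored by role, with the area of a point proportional to the score plus a constant. The 9 genes left of the dashed line have a peak within 5 kb. The dotted line marks 50 kb from the TSS. The text counts 50 kb from the ends of the gene, so some genes counted there lie right of the dotted line. Kdm5a has the highest score among the nearest peaks, 70.

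The sequences of promoter-proximal peaks are shown first for Kdm5a and Rbbp5, which had the highest scores of the 11, 70 and 47. Each is given on the plus strand of NCBIM37, with RUNX words on either strand in capitals. The Rbbp5 sequence covers 100 bp on each side of the peak centre (chr1:134373583-134373783). At Kdm5a the peak lies in the 5′ UTR, and only the 30 bases around the RUNX word are given (chr6:120314362-120314391).
Kdm5a: gattttgtttccTGCGGTggcggactgatt
Rbbp5: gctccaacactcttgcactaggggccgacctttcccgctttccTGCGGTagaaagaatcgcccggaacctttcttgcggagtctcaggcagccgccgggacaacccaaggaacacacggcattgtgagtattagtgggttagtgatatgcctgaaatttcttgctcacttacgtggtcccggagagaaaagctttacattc

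Neither of these windows held TGTGGT, and each held TGCGGT once. The longest run of letters common to both windows was 11 bases long, TTTCCTGCGGT, and in both genes it stood on the strand of the gene. It was chosen from these windows after they had been seen. These peaks therefore hold it by construction, and no other Runx1 peak held it within 100 bp of the centre on either strand. Among windows of this width centred on protein-coding TSSs, 3 of 22359 held it, or 0.0134%. At Kdm5a the run covered positions 252 to 262 downstream of the TSS, and the TSS of Ccdc77, a gene on the opposite strand, is annotated at 257. At Rbbp5 it covered positions 323 to 313 upstream of the TSS, and the TSS of the lincRNA 6030442K20Rik on the opposite strand is annotated at 322 upstream. In both genes the shared letters thus lay over the annotated start of the opposite transcript.

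The other promoter-proximal peaks with the highest scores, where their windows touched no UTR, are given for comparison. They are the intronic peak of Chd4 (chr6:125049429-125049629), the upstream peak of Arid4a (chr12:72116030-72116230), the more distal Kdm5b peak (chr1:136453604-136453804) and the intronic peak of Hdac7 nearest to its TSS (chr15:97672705-97672905). Of the Hdac7 peak at the TSS, 30 bases are shown (chr15:97674784-97674813).
Chd4: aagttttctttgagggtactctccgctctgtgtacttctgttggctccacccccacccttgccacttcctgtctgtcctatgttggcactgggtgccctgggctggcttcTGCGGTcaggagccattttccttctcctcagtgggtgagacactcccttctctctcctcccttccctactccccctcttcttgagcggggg
Arid4a: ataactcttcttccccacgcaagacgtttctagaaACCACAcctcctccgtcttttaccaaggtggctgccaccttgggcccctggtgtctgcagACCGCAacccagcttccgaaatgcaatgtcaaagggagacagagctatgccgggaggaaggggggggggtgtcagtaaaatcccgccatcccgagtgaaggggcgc
Kdm5b: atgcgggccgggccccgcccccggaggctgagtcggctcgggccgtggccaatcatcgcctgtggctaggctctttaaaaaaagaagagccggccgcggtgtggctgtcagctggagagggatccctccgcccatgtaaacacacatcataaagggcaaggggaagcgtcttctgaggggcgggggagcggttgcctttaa
Hdac7 intron: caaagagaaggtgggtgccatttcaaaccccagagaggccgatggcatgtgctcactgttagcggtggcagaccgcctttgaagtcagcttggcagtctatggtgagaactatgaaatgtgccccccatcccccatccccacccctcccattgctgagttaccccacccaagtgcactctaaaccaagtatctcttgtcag
Hdac7 TSS: gaggggagctgcTGTGGTtgggttatctga

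Among the histone lysine demethylases, Kdm5a and Kdm5b had promoter-proximal peaks, and Kdm5c, Kdm6b, Kdm2a, Kdm2b and Kdm1a did not. Kdm5a and Kdm5b remove methyl groups from lysine 4 of histone H3 (H3K4). The Kdm5a peak (chr6:120314297-120314483) had a score of 70, exceeded by 27 of the 3531 peaks, and its centre lay 273 bp downstream of the TSS, 13 bp from the RUNX word. It was nearer to the opposite TSS of Ccdc77, at 16 bp, and also lay inside that gene. Kdm5b had a peak of score 16 centred 36 bp upstream of the TSS (chr1:136456619-136456805) and another of score 21 at 3044 bp upstream (chr1:136453611-136453797). Neither held a RUNX word, and their G+C contents were 63.7% and 63.2%. Kdm5c, the X-linked paralog, had no peak within 50 kb, and the nearest lay 651 kb from its TSS. For Kdm6b and Kdm1a, which act on lysine 27 and on lysine 4 of H3, the nearest peaks lay 324 and 296 kb from the TSS. Kdm2b, a demethylase that also binds unmethylated CpG, had an intronic peak of score 16 at 106277 bp downstream of the TSS used here and 5551 bp downstream of another of its annotated TSSs. A peak of score 33 past the end of Kdm2b, 49339 bp away and so just inside the limit of 50 kb, lay 10 bp from the TSS of Anapc5. Kdm2a, the paralog, had peaks only past its end, with scores of 16 and 23, both in Adrbk1 and nearest to the TSS of Ankrd13d. Kdm5b had another peak of score 16 at 47917 bp past its end, nearest to the TSS of Syt2.

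Among genes of the H3K4 methyltransferase complexes, Rbbp5 had a peak of score 47 (chr1:134373590-134373776), with 118 peaks above it, centred 261 bp upstream of the TSS and 61 bp from that of the lincRNA 6030442K20Rik. Wdr5 and Ash2l, which encode the partners of Rbbp5 in the same core complex, had none near the TSS. The nearest peak to Ash2l had a score of 54 but lay 26023 bp upstream, in an intron of Kcnu1, and was overlapped by an input peak of score 8. It was the only peak within 50 kb of the 46 genes that an input peak overlapped. Wdr5 had a peak of score 21 at 65116 bp downstream of its TSS, and 3 input peaks with scores from 15 to 24 lay 13366 to 19220 bp upstream. Mll5, which encodes a SET-domain protein related to the methyltransferases, had its nearest peak 47346 bp upstream, with a score of 26 and TGCGGT in its window. The coding TSS nearest to that peak was that of 5031425E22Rik. Of all 36 peaks in or within 50 kb of the 46 genes, that near Ash2l had the score next below that of Kdm5a, and Rbbp5 followed it.

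Among the Polycomb genes, which encode repressive complexes that modify histones H3 and H2A, Eed, Rbbp4 and Asxl1 had promoter-proximal peaks. Eed, a core subunit of the H3K27 methyltransferase complex PRC2, had a peak of score 16 in its 5′ UTR, centred 8 bp downstream of the TSS (chr7:97129392-97129578). Rbbp4, a histone-binding subunit that PRC2 shares with deacetylase complexes, had a peak of score 33 (chr4:129013052-129013238) centred 531 bp upstream. This peak lay in the 5′ UTR of Zbtb8os on the opposite strand and was nearer to the TSS of that gene, at 206 bp. Asxl1, which encodes the partner of the H2A deubiquitinase Bap1, had a peak of score 16 centred 254 bp upstream (chr2:153171234-153171420) and another of score 21 at 9480 bp upstream, the latter with TGTGGT in its window. None of the promoter-proximal peaks of these genes held a RUNX word. The catalytic and core subunits Ezh1, Ezh2 and Suz12 had their nearest peaks 153, 175 and 320 kb from the TSS. For Bmi1, of the other main Polycomb complex PRC1, and for Asxl2 the distances were 620 and 991 kb.

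Among the deacetylases and their complexes, Hdac7 and Arid4a had promoter-proximal peaks. Hdac7, a class IIa deacetylase known for its high expression in thymocytes, had more peaks than any other of the 46 genes when only those near the TSS or inside the gene were counted. These were a peak of score 26 centred 137 bp downstream of the TSS (chr15:97674703-97674889), one of score 23 at 2128 bp (chr15:97672712-97672898) and one of score 30 at 7802 bp (chr15:97667038-97667224). The peak at the TSS held TGTGGT 2 bp from its centre. The peak at 7802 bp lay 4933 bp upstream of the nearest of the other annotated Hdac7 TSSs and held TGTGGT at 2 places, 9 and 2 bp from its centre, on the strand opposite to the gene. Its sequence (chr15:97667031-97667231) is shown because it was the only peak inside any of the 46 genes with this word more than once.
Hdac7 distal intron: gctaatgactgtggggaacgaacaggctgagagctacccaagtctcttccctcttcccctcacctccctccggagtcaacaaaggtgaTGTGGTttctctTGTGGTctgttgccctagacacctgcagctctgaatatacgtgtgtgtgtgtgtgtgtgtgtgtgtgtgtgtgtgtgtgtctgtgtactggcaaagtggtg
Arid4a, which encodes a subunit of the Sin3 deacetylase complex, had a peak of score 18 centred 847 bp upstream (chr12:72116037-72116223), with TGTGGT 62 bp and TGCGGT 2 bp from the centre. Its paralog Arid4b had no peak within 50 kb, nor had Hdac2, Hdac3 or Sirt1, and the nearest peaks to these genes lay from 397 kb (Sirt1) to 2159 kb (Hdac2) from the TSS. Hdac1 had 3 peaks within 50 kb, with scores of 44, 18 and 23, and all 3 were nearest to the TSS of Lck, the kinase of the T-cell receptor pathway, at 14936 bp and 14 bp downstream and 1704 bp upstream of it.

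Among the remodelers, Chd4, the ATPase of the NuRD complex, had a peak of score 18 in an intron at 3530 bp downstream (chr6:125049436-125049622), with TGCGGT 12 bp from the centre. It was the promoter-proximal peak farthest from its TSS, and another Chd4 peak of score 16, at 6082 bp upstream, was the nearest of those left out by the limit of 5 kb. Chd1 and Chd2 had none within 50 kb. The SWI/SNF genes Arid1a, Arid2, Smarca4, Smarcb1 and Smarcc1 had no promoter-proximal or intragenic peak, with nearest peaks from 57.8 kb (Arid1a) to 692 kb (Arid2) from the TSS. The SWI/SNF genes encode subunits of the ATP-dependent BAF and PBAF complexes, with Smarca4 as the ATPase. Smarcc1 alone among them had a peak within 50 kb of the gene, with a score of 21 at 149261 bp downstream of its TSS, nearest to the TSS of 2610002I17Rik, and Arid1a and Smarcb1 had one within 100 kb.

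Of the DNA methylation genes, Tet3, an enzyme that oxidizes 5-methylcytosine, had a peak of score 23 within an intron at 25396 bp downstream (chr6:83366180-83366366), with TGTGGT 79 bp from the centre. The methyltransferase genes Dnmt1 and Dnmt3a and the other Tet genes had no peak within 50 kb, and their nearest peaks lay from 85.1 kb (Tet1) to 611 kb (Dnmt3a) from the TSS. Ctcf, which encodes the architectural protein that binds insulators, had a pair of peaks with scores of 18 and 33 at 13896 and 13265 bp upstream, in sequence between genes with no RUNX word. Ctcf was the coding gene with the nearest TSS to both. The acetyltransferase genes Ep300 and Crebbp and the acetyl-lysine reader gene Brd2 had peaks only beyond the gene, each closest to the TSS of another gene. The Crebbp peak, with a score of 42, lay 591 bp from the TSS of Trap1, in its 5′ UTR. The Ep300 peak, with a score of 16, lay in an intron of L3mbtl2, 3253 bp from its TSS, and the Brd2 peak, with a score of 18, lay 372 bp from the TSS of H2-Oa. Of the H3K9 and H3K36 methyltransferase genes, Setd2 had peaks of score 23 and 16 only within Nbeal2, 8828 and 4585 bp from the TSS of that gene. Ehmt1 had one of score 42 in an intron of Cacna1b, 15109 bp from its TSS, with TGTGGT and TGCGGT in its window, and X-linked Suv39h1 had none within 50 kb.

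**Figure D2:**
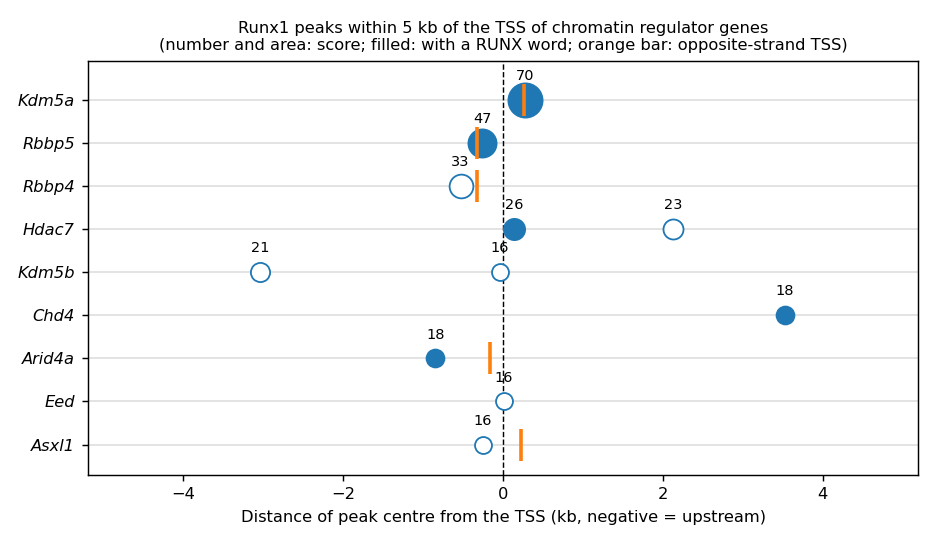
Position in kb of the 11 Runx1 peaks within 5 kb of the TSS of 9 chromatin regulator genes, with upstream negative. Numbers give the score, filled points hold TGTGGT or TGCGGT within 100 bp of the centre, and orange bars mark an annotated TSS on the opposite strand within 1.5 kb; such a TSS is present at Kdm5a, Rbbp5, Rbbp4, Arid4a and Asxl1.

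An annotated TSS on the opposite strand, coding or not, lay within 1.5 kb of the TSS of 5 of the 9 genes with a promoter-proximal peak, or 55.6% (exact 95% interval 21.2 to 86.3%). The share was 27.5% of the 1002 other protein-coding genes with such a peak and 16.2% of all 22313 others. Besides Ccdc77 at Kdm5a and the lincRNA at Rbbp5, these were Zbtb8os at 325 bp upstream of Rbbp4, the lincRNA 3110056K07Rik at 158 bp upstream of Arid4a and the lincRNA 2500004C02Rik at 228 bp downstream of the Asxl1 TSS. In 4 of the 5 genes the peak centre was nearer to the opposite TSS than to that of the chromatin regulator, and Asxl1 was the exception. The peaks of Kdm5a, Rbbp5, Rbbp4 and Arid4a thus cannot be ascribed to either promoter from position alone. Of the 37 genes without such a peak, 7 had an opposite TSS in this range. Read the other way, a promoter-proximal peak was found at 5 of the 12 genes with an opposite TSS and at 4 of the 34 without. Among all other protein-coding genes the shares were 7.62% of 3623 with and 3.88% of 18690 without an opposite TSS. With protein-coding divergent neighbours alone, upstream and within 1.5 kb, 1 of 6 genes had a peak (Rbbp4), against 8.86% of other genes with such a neighbour, and 8 of 40 genes without one had a peak, against 4.04%. The peak centre was upstream of the gene's TSS for 6 of the 11 peaks, or 54.5% (23.4 to 83.3%). The share was nearly the same, 55.8%, for 1045 pairs of gene and peak at other protein-coding genes. With the TSS of any protein-coding transcript it was 66.7% of 12, against 57.7%. Within 1 kb of the TSS it was 62.5% of 8, against 60.4%.

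The share of genes with a peak was then compared with that of all other protein-coding genes. The 9 of 46 genes with a peak within 5 kb of the TSS made 19.6% (exact Clopper-Pearson 95% confidence interval 9.36 to 33.9%), against 4.49% (4.22 to 4.77%) of 22313 other genes. Intervals cover counting error over genes only. No test was made, since the genes were chosen with results of these data known, among them the peaks of Kdm5a and Rbbp5. Without those 2 genes the share was 7 of 44, or 15.9% (6.64 to 30.1%). Restricting both sides to genes with a CpG-rich promoter gave 8 of 35, or 22.9% (10.4 to 40.1%), against 6.15% of 10029. Expression of the genes in DP thymocytes was not used here.

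Inside the gene, 6 of 46 genes had a peak, or 13.0% (4.94 to 26.3%), against 6.48% of other genes. The chromatin regulator genes were longer, with a median of 63.9 kb against 15.4 kb. With the other genes weighted to the same quartiles of length, their share was 11.5%, which lies inside the interval of the 46 genes. For the 5 kb window, the same weighting gave 4.67%.

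In or within 50 kb of the gene, 23 of 46 genes had a peak, or 50% (34.9 to 65.1%), against 25.8% of other genes. With the other genes weighted to the same quartiles of length, their share was 28.6%. Of the 22 pairs of gene and peak beyond the gene and the 5 kb window, 17 had the TSS of another coding gene nearest, and in 9 of these that TSS was within 5 kb. Each peak was then given only to the coding gene whose longest coding transcript started nearest to it. In this count 11 of the 46 genes had a peak, or 23.9% (12.6 to 38.8%), against 12.8% of other genes. Starts of other transcripts and of non-coding genes were not used. The 11 genes thus include Kdm5a, Rbbp5 and Arid4a, whose peak centres lay nearer to an annotated opposite TSS.

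**Figure D3:**
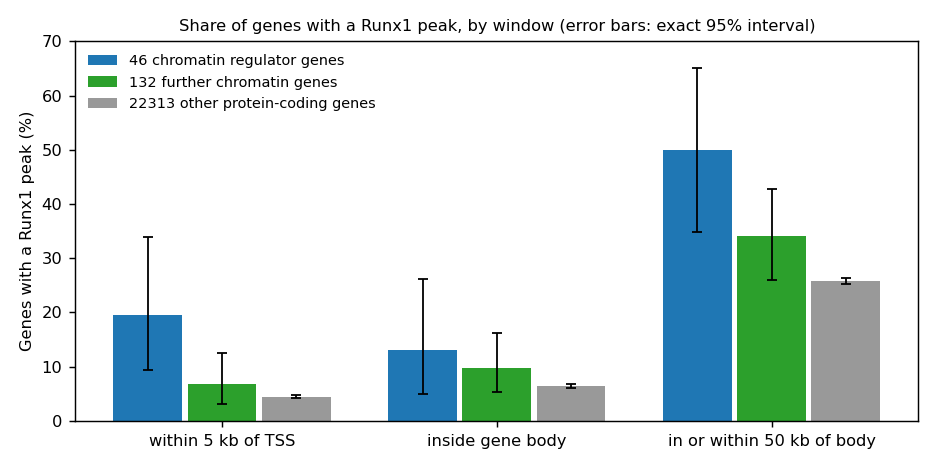
Percentage of genes with a Runx1 peak in 3 windows for the 46 chromatin regulator genes, 132 further chromatin genes and 22313 other protein-coding genes, which include the 132. Error bars are exact 95% intervals for counting error; at the TSS the bars stand at 19.6%, 6.82% and 4.49%.

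A further list of 134 genes of the same complexes and families was used for comparison, of which 132 were matched to 1 annotated gene. Of these, 9 had a promoter-proximal peak, or 6.82% (3.16 to 12.5%), which was near the 4.49% of all other genes. The interval overlapped that of the 46 genes, but the share of each list lay outside the interval of the other. The difference between the lists was not tested. The 9 genes of the further list were Suv420h1, an H4K20 methyltransferase gene, with a score of 61, the H3K9 demethylase gene Kdm3a with 44, Sirt6 with 35, the H3K4 methyltransferase gene Mll2 with 33, Brd8 and Brpf1, both with 21, Rcor1 with 18, and Mtf2 and Smarcd2, both with 16. Thus 6 of these 9 genes had scores above the median of all peaks, and Rcor1 stood at it. Inside the gene, 13 of 132 had a peak, or 9.85%, and within 50 kb 45 had one, or 34.1%.

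The scores of the 11 promoter-proximal peaks ranged from 16 to 70, with a median of 21, as compared with 18 for the other 857 peaks within 5 kb of a coding TSS. Their centres lay within 1 kb of the nearest coding TSS in 8 of 11 cases, or 72.7%, against 62.3%. Their median G+C content was 58.7%, against 57.7%. The ratio of observed to expected CpG was between 0.54 and 1.02 for the peaks of Kdm5a, Kdm5b, Rbbp5, Asxl1, Eed, Rbbp4 and Arid4a, and between 0.19 and 0.31 for those of Chd4 and Hdac7.

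**Figure D4:**
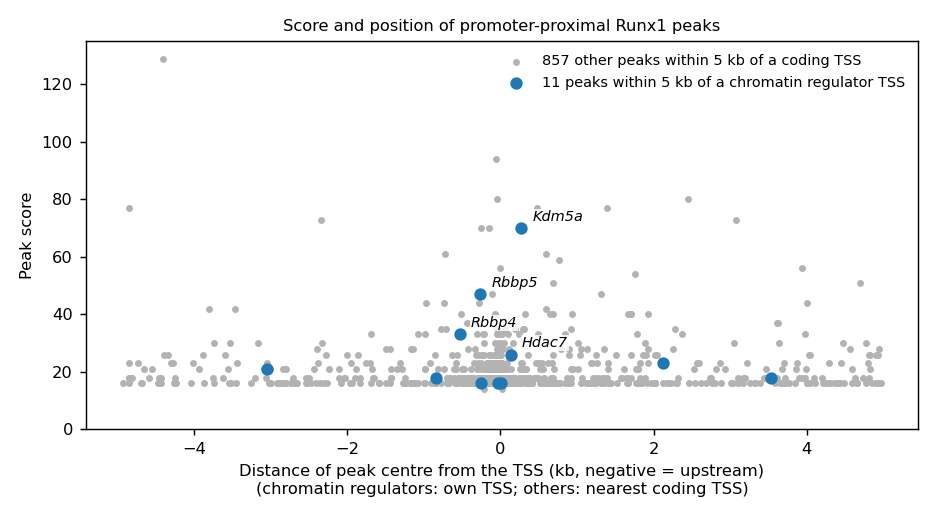
Score (linear axis from 0) of promoter-proximal Runx1 peaks against the distance in kb of their centre from the TSS, for the 11 peaks of chromatin regulator genes and 857 others. Most peaks of both kinds lie near the lowest scores; Kdm5a at 70 and Rbbp5 at 47 stand above the other peaks of the group.

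The RUNX word TGTGGT was found within 100 bp of the centre of 2 of the 11 peaks, or 18.2%, namely those of Hdac7 at the TSS and of Arid4a. It was found at 26.0% of the 857 other promoter-proximal peaks and at 10.0% of windows of this width centred on all protein-coding TSSs. In windows of the same width placed 1 kb to each side of the 11 peaks it was found in 27.3%, a higher share than at the peaks themselves. TGCGGT was found at 4 of the 11 peaks, or 36.4%, and at 18.6% of the 857 others, and in 5.82% of the TSS windows. With either word counted, 5 of 11 peaks had a word, or 45.5%, as compared with 41.3% of the other promoter-proximal peaks and 15.4% of the TSS windows. The share was thus lower than at the other promoter-proximal peaks for TGTGGT and higher for TGCGGT, over 11 peaks and with no test. The letters CCGGAAG, bound by ETS factors, were found at 1 of the 11 peaks, that of Kdm5a, and at 11.9% of the others, the GC box GGGCGG at 3 and at 31.5%, and CCAAT at 2 and at 26.5%.

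Beyond the genes, the peak with the most RUNX words held TGTGGT at 3 places. It had a score of 37 and lay 22245 bp past the 3′ end of Kdm5a, in an intron of Il17ra, 3622 bp downstream of the TSS of that receptor gene (chr6:120416737-120416937). A peak of score 23 past the end of Kdm2a, in an intron of Adrbk1, held the word at 2 places on the minus strand (chr19:4294328-4294528). Both are shown because they hold the word more than once.
Il17ra intron: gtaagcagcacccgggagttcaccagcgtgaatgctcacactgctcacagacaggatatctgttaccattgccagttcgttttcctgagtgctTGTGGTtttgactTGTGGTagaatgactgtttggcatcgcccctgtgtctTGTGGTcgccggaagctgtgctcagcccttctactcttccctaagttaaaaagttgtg
Adrbk1 intron: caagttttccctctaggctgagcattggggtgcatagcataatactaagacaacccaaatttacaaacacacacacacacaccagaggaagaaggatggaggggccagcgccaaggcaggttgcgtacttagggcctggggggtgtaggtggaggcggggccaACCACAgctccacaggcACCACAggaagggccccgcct

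Input peaks were counted in the same way. None of the 46 genes had an input peak within 5 kb of the TSS or inside the gene. A count of 0 allows a share of up to 6.52% when 3 genes are taken as the limit, and the exact Clopper-Pearson 95% interval reaches 7.71%. Within 50 kb, Wdr5 and Ash2l had input peaks, 4 in all. Among the other protein-coding genes, 0.206% had an input peak within 5 kb of the TSS, so that a count of 0 in 46 genes says little about input signal at these promoters.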

How the data were processed

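The authors deposited 1 list of peaks per library, with positions and a whole-number score per peak, which is not explained in the files and served only to describe and filter peaks. The submitters' processing notes name HOMER and mm9, and the aligner and read filters are not given in the sources used here. Starts were converted to 1-based positions, and peak centres were compared with genes of GENCODE M1 (NCBIM37, the same build as mm9). The gene body is the annotated span, and peaks were called promoter-proximal within 5 kb of the TSS, the window of the study's methods. A promoter was called CpG-rich with a G+C content of at least 50% and an observed to expected CpG ratio of at least 0.6 within 500 bp of the TSS. RUNX words were searched on both strands within 100 bp of peak centres. Within UTRs at most 30 bases are printed.

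Every gene of the group with a peak near the TSS or inside the gene is named, and sequences are those of the 8 promoter-proximal peaks with the highest scores and of peaks with TGTGGT more than once; the Rbbp4 peak, in a UTR and without a word, is not printed. The genes, roles and further list were chosen with earlier results of these data known. Fold changes between libraries were not computed, as the lists hold no counts. Expression values from outside these files were not used here. The counting was tested on simulated data, and Python 3.11.15, numpy 2.4.6, pandas 2.3.3, scipy 1.17.1, pysam 0.24.0 and matplotlib 3.10.9 were used.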

Additional observations from a re-analysis of the deposited data

How the results depend on the processing

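No promoter-proximal peak of the chromatin regulator genes overlapped an input peak, so leaving out such peaks could not change their share. The share of these genes with a promoter-proximal peak stayed within the interval of its main value for other choices of TSS and for overlap in place of the centre. It also did so for windows of 1, 2.5 and 10 kb (17.4, 17.4 and 19.6%, against 2.76, 3.53 and 6.53% of other genes). It was 8.70% (others 1.16%) with only peaks whose score reached the upper quartile, 4.35% (others 1.18%) with only peaks holding TGTGGT, leaving Hdac7 and Arid4a, and 0 with input peaks; fewer peaks entered each of these counts. Inside the gene it was 6.52% (others 1.80%) with the upper quartile, 4.35% (others 2.06%) with peaks holding TGTGGT and 0 with input peaks. Within 50 kb it was 30.4% (others 7.84%) with the upper quartile of peaks, 17.4% (others 8.42%) with TGTGGT and 34.8% (others 15.8%) when the reach was 20 kb. It was 4.35% (others 2.24%) with input peaks. With peaks given to the nearest TSS among those of the longest protein-coding transcripts, it was 23.9%. TGTGGT was found at 18.2% of the 11 peaks, at 9.09% within 50 bp of the centre and at 27.3% of windows 1 kb to each side of them. The counts without Kdm5a and Rbbp5, at CpG-rich promoters and by nearest TSS, and the run shared by Kdm5a and Rbbp5, were chosen after seeing the data. Leaving out a replicate was not possible with 1 library per condition, and how deeply a region without a peak was sequenced is not known. No paired analysis was possible because there was 1 Runx1 library and 1 input library.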
